A study of Mus musculus with 27 samples.

Results

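Transcription factors that specify and maintain the projection neurons of the cerebral cortex were followed through chromatin, soluble nucleoplasm and cytoplasm of 3 mouse cell types. The genes were taken by symbol, as GENCODE names the Ensembl identifiers of the files: Tbr1, Bcl11b, Fezf2, Neurod1, Neurod2, Neurod6, Cux1, Cux2 and Mef2c, 9 of the 37332 genes with counts. The cell types were primary cortical neurons after 5 days of culture on poly-L-lysine (mCtx), a neural progenitor line made in the laboratory and grown in B27 with EGF and FGF added daily (mNPC), and the E14 embryonic stem cell line grown on gelatin with LIF (mESC). The mNPC and mESC samples stand for 1 line each, and mCtx for a primary culture that can hold more than 1 kind of cell. Each cell type was split into the 3 fractions and sequenced in 3 biological replicates, as total RNA over 200 nt with ribosomal RNA removed, giving 27 libraries in 9 groups.

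Projection neurons are the excitatory, long-range neurons of the cortex, which use glutamate and arise from dorsal progenitors. Newborn cells switch on basic helix-loop-helix factors of the NeuroD family, which pair with E proteins and bind E-boxes, and then take a layer identity. Tbr1, Fezf2 and Bcl11b are known for deep-layer neurons that project out of the cortex, Cux1 and Cux2 for upper-layer neurons that project within it, and Mef2c for later, activity-dependent steps of neuronal maturation.

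The libraries held 11249862 to 19871198 assigned counts. A gene's count covers its whole genomic span, introns included, so unspliced RNA adds to it in every fraction and most of all in long genes. Values per sample are given in CPM, the count scaled by the library's effective size, and fold changes as log2 ± standard error (SE) from edgeR's quasi-likelihood fit on 18249 genes, with adjusted p called at 0.05. CPM depends on gene length, so levels of different genes are compared only in the deposited TPM, which count annotated transcripts per length and library. In bulk RNA, fewer cells of a type and less RNA per cell cannot be told apart. The 10 pan-neuronal markers summed to 6762 to 7466 CPM in mCtx cytoplasm, against 676 to 815 in mNPC and 344 to 346 in mESC cytoplasm, and the 8 pluripotency markers summed to 1.72 to 3.0 in mCtx and 7.39 to 8.93 in mNPC, against 3797 to 4212 in mESC cytoplasm.

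All 9 genes passed the filter on low counts, but Tbr1, Fezf2, Neurod2 and Neurod6 passed it only through the mCtx libraries and therefore had to differ between mCtx and the other cell types. The other 5 genes (Bcl11b, Neurod1, Cux1, Cux2 and Mef2c) passed also without mCtx.

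Promoter windows of 3 genes are shown because the results turn on them: Neurod2 and Neurod6 are a closely matched pair found in mCtx, and Mef2c was high in mCtx and also counted in mNPC. Windows with 66 to 250 bases in annotated exons, as for Cux1, are not shown. Each is the 250 bases upstream of a transcript start in RefSeq (GRCm38.p6), 5′ to 3′ on the gene's strand, with every CANNTG E-box, the core that NeuroD factors recognise, in capitals. Neurod2 is on the minus strand at chr11:98329646-98329895, Neurod6 on the minus strand at chr6:55681264-55681513, and Mef2c, at its most upstream start, on the plus strand at chr13:83503784-83504033. At most 3 bases of each lie in an annotated exon.
Neurod2: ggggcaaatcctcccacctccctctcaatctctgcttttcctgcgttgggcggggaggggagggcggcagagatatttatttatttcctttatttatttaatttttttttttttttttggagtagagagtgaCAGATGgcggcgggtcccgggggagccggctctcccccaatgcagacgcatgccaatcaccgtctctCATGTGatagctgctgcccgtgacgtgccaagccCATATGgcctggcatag
Neurod6: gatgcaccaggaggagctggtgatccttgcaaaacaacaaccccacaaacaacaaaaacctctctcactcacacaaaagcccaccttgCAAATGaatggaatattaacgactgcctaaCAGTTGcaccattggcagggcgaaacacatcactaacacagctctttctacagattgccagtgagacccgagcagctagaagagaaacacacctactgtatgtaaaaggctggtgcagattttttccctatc
Mef2c: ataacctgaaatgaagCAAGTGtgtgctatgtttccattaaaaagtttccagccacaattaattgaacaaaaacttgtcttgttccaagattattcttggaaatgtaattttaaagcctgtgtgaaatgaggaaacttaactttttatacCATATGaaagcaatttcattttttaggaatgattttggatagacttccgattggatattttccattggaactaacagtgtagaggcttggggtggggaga
The Neurod2 window held 3 CANNTG matches, of which 1 is CAGATG, and 52.8% G or C, with 11 CG dinucleotides. The Neurod6 window held 2 matches and 46.0% G or C, with 3 CG dinucleotides. The Mef2c window held 2 matches and 33.6% G or C, with 1 CG dinucleotide. It also had 1 TATAAA on the opposite strand, which reads tttata in the window as printed. Among 32536 distinct windows of the same length, read on both strands, 66.2% held a CANNTG (which includes CAGATG), 14.4% a CAGATG or its complement CATCTG, and 12.3% a TATAAA, so an E-box of this form is common. CANNTG was found in windows of 6 of the 9 genes and CAGATG in windows of 3 (Neurod2, Cux2 and Mef2c, there at another start). These matches describe the letters, and binding was not measured.

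Neurod6 and Neurod2, which mark postmitotic excitatory neurons of the forebrain, were counted in every mCtx library and almost nowhere else. Neurod6 (ENSMUSG00000037984, chromosome 6, 55677818 to 55681263, minus strand, mm10) had 20.8, 26.9 and 27 CPM in mCtx chromatin, 132, 130 and 139 CPM in mCtx nucleoplasm and 308, 287 and 284 CPM in mCtx cytoplasm. In contrast, 1 read was counted over all 9 mNPC libraries and 0 in all 9 mESC libraries. With a floor of 3 counts per library, Neurod6 was at least 136-fold higher in mCtx than in mNPC chromatin, at least 564-fold in nucleoplasm, and 15112-fold in cytoplasm on that 1 read (exact 95% interval 2712 to 596924). Against mESC, Neurod6 was in counts at least 162-fold higher in chromatin, at least 706-fold in nucleoplasm and at least 1686-fold in cytoplasm. In TPM, however, it was above 0 in all 3 mESC chromatin libraries, at 0.15, 0.17 and 0.26. The mCtx chromatin libraries had 11.1, 17.1 and 16.8 TPM. The chromatin difference from mESC was thus smaller in TPM than the bound from counts.

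Neurod2 (ENSMUSG00000038255, chromosome 11, 98325415 to 98329648, minus strand) had 28.5, 21.0 and 21.1 CPM in mCtx chromatin, 88.2, 86.9 and 84.8 CPM in mCtx nucleoplasm, and 182, 200 and 188 CPM in mCtx cytoplasm. Outside mCtx, 2 reads were counted in mNPC, both in cytoplasm, and 3 in mESC, in 1 chromatin library. Neurod2 was at least 129-fold higher in mCtx than in mNPC chromatin and at least 365-fold in nucleoplasm, and its cytoplasmic ratio was 4899 (interval 1356 to 40460). Against mESC the chromatin ratio was 457 (156 to 2219), and Neurod2 was at least 457-fold higher in nucleoplasm and at least 1093-fold in cytoplasm. The mCtx libraries lay far above all others for both genes in each fraction, with no overlap.

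Neurod1, a family member expressed in newborn neurons and in endocrine cells, was lower in mCtx than both relatives and was also present in mESC. Its counted span (ENSMUSG00000034701, chromosome 2, 79452521 to 79456751, minus strand) lies wholly inside Cerkl on the same strand, and antisense to Gm26755, so reads of these genes may not be separable in counts. In mCtx it had 2.79, 2.05 and 3.24 CPM in chromatin, 8.27, 8.64 and 9.95 CPM in nucleoplasm and 16.8, 13.6 and 14.3 CPM in cytoplasm. The mNPC means were 0.0198, 0.195 and 0.119 CPM in the same order of fractions, and the mESC libraries had 3.61, 3.13 and 1.79 CPM in chromatin, 4.99, 8.66 and 3.75 CPM in nucleoplasm, and 4.09, 6.25 and 1.94 CPM in cytoplasm. Neurod1 rose in mCtx over mNPC by 5.54 ± 0.51 in nucleoplasm (adjusted p = 2.55e-10) and 6.90 ± 0.51 in cytoplasm (4.2e-12), and in chromatin the ratio was 132 (23.1 to 5250) on 1 mNPC read. Against mESC it was higher in cytoplasm, by 1.86 ± 0.33 (1.1e-05). In chromatin and nucleoplasm mCtx and mESC libraries overlapped, at -0.09 ± 0.36 (0.826) and 0.62 ± 0.32 (0.077). Counts assigned to Cerkl may include Neurod1 reads. They averaged 11.5, 13.9 and 16.2 CPM in mCtx chromatin, nucleoplasm and cytoplasm, 0.262, 0.334 and 0.202 CPM in mNPC, and 13.7, 9.75 and 5.19 CPM in mESC. The part of either gene in the counts of the other was not tested. In TPM, which use transcripts, Neurod1 averaged 1.70 ± 0.178 in mCtx cytoplasm, 0.0167 ± 0.00577 in mNPC cytoplasm and 0.813 ± 0.401 in mESC cytoplasm (SD, n = 3 each). Cerkl averaged 0.257 ± 0.116, 0.03 ± 0.0173 and 0.317 ± 0.146 TPM in the same order.

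**Figure D1:**
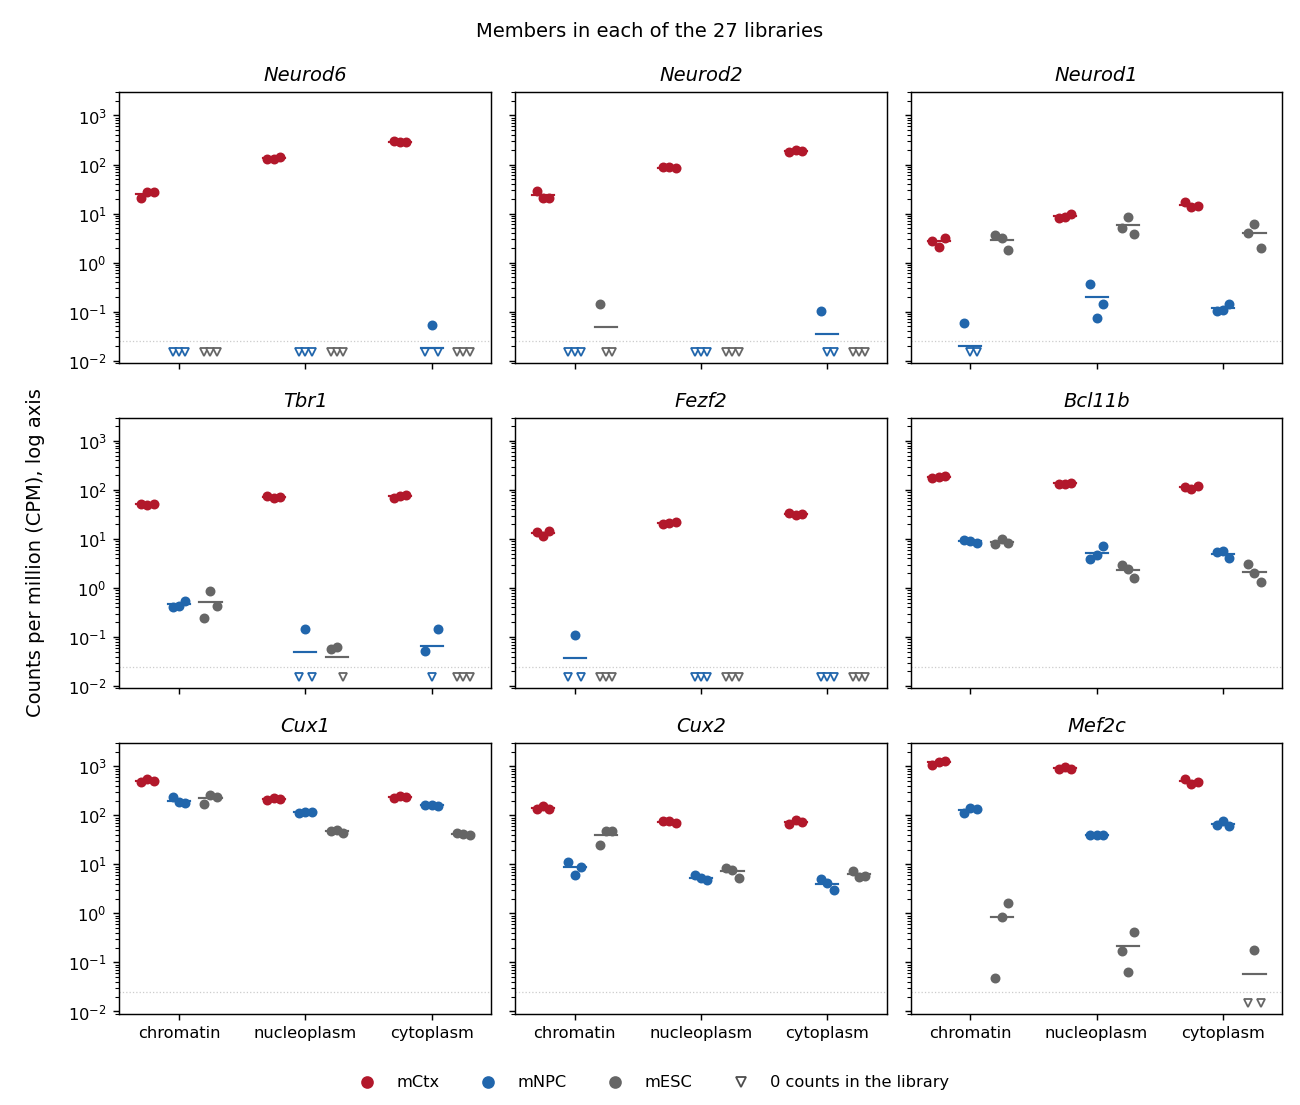
CPM of the 9 genes in each of the 27 libraries, on a log axis, by fraction and, within a fraction, for mCtx, mNPC and mESC; points are libraries, bars are means and open triangles at the foot are libraries with 0 counts. Neurod6, Neurod2, Tbr1 and Fezf2 lie below 1 CPM outside mCtx, while Cux1 is present in all 3 cell types and Mef2c in mCtx and mNPC.

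Among the deep-layer factors, Tbr1 and Fezf2 followed the NeuroD pair in being close to absent outside mCtx in counts. Tbr1 (ENSMUSG00000035033, chromosome 2, 61802930 to 61814114, plus strand), a T-box factor of early-born neurons that project to the thalamus, had 52.1, 50.2 and 52.5 CPM in mCtx chromatin, 74.7, 69.4 and 72.4 CPM in nucleoplasm and 67.5, 75.8 and 79.0 CPM in cytoplasm. Outside mCtx its reads were mostly in chromatin, at 0.469 ± 0.0736 CPM in mNPC and 0.517 ± 0.333 CPM in mESC (SD, n = 3 each). These low chromatin levels were above the nucleoplasm means of 0.0491 CPM in mNPC and 0.0396 CPM in mESC. In chromatin the fitted difference of mCtx was 6.77 ± 0.26 against mNPC and 6.63 ± 0.26 against mESC, given as a description since Tbr1 passed the filter through mCtx. In nucleoplasm its ratio in counts was 1381 (382 to 11405) to mNPC and 1727 (478 to 14269) to mESC. In cytoplasm it was 1265 (433 to 6139) to mNPC and at least 426 to mESC. In TPM Tbr1 averaged 23.4, 17.3 and 7.04 in mCtx chromatin, nucleoplasm and cytoplasm, against 1.62, 0.353 and 0.25 in mNPC. The mESC means were 0.88, 0.00667 and 0.0 TPM. The difference from mNPC was thus much smaller in TPM than in counts in each fraction, as was that from mESC in chromatin.

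Fezf2 (ENSMUSG00000021743, counted over chromosome 14, 12341892 to 12345865, minus strand), a zinc-finger factor that specifies subcerebral projection neurons, had 13.7, 11.7 and 14.2 CPM in mCtx chromatin, 20.1, 20.9 and 22.6 CPM in nucleoplasm, and 34.0, 30.7 and 31.7 CPM in cytoplasm. Outside mCtx, 2 reads were counted, both in mNPC chromatin. The chromatin ratio to mNPC was therefore 324 (89.2 to 2684), and Fezf2 was at least 89.1-fold higher in nucleoplasm and at least 180-fold in cytoplasm. Against mESC it was at least 85.7-fold, 112-fold and 185-fold higher in chromatin, nucleoplasm and cytoplasm.

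Bcl11b, a zinc-finger factor of corticospinal neurons that is also used by striatal neurons, some interneurons and T cells, was present at a low level in both lines. Over its span (ENSMUSG00000048251, chromosome 12, 107910403 to 108003602, minus strand, 8.7% exonic) the mCtx libraries had 173, 183 and 193 CPM in chromatin, 134, 135 and 141 CPM in nucleoplasm and 116, 106 and 120 CPM in cytoplasm. The mNPC libraries had 9.49, 9.04 and 8.29 CPM in chromatin, 3.82, 4.78 and 7.15 CPM in nucleoplasm, and 5.31, 5.55 and 4.10 CPM in cytoplasm. In mESC the values were 7.81, 10.1 and 8.20 CPM in chromatin, 2.97, 2.45 and 1.63 CPM in nucleoplasm, and 3.07, 2.02 and 1.33 CPM in cytoplasm. Every mCtx library lay above every mNPC and mESC library of its fraction. The rise over mNPC was of similar size in the 3 fractions, at 4.35 ± 0.19, 4.69 ± 0.20 and 4.5 ± 0.20 in chromatin, nucleoplasm and cytoplasm (largest adjusted p = 1.39e-16), and the rise over mESC was 4.39 ± 0.19, 5.84 ± 0.22 and 5.71 ± 0.22.

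The upper-layer homeodomain pair differed from each other outside mCtx. Cux2 (ENSMUSG00000042589, chromosome 5, 121857963 to 122050102, minus strand) had 132, 152 and 136 CPM in mCtx chromatin, 75.0, 75.7 and 69.0 CPM in nucleoplasm and 65.3, 80.9 and 71.5 CPM in cytoplasm. In mNPC it had 11.4, 6.19 and 8.98 CPM in chromatin, 6.01, 5.22 and 4.82 CPM in nucleoplasm, and 5.15, 4.10 and 2.95 CPM in cytoplasm. The mESC libraries had 25, 49.1 and 47.1 CPM in chromatin, with replicate 1 apart from the other 2, and 8.52, 7.84 and 5.38 CPM in nucleoplasm and 7.38, 5.53 and 5.93 CPM in cytoplasm. Cux2 was higher in mCtx than in mNPC by 3.99 ± 0.23, 3.78 ± 0.24 and 4.14 ± 0.24 in chromatin, nucleoplasm and cytoplasm, without overlap. Against mESC the rise was 1.79 ± 0.21 in chromatin (adjusted p = 1.48e-08), 3.33 ± 0.23 in nucleoplasm and 3.53 ± 0.23 in cytoplasm (1.92e-13).

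Cux1, which many tissues express, was abundant in all 3 cell types. Over its span (ENSMUSG00000029705, chromosome 5, 136248135 to 136567490, minus strand, 6.27% exonic, with the antisense Gm16599 over 44.7% of it at 0 to 11 counts), mCtx had 470, 550 and 501 CPM in chromatin, 202, 226 and 213 CPM in nucleoplasm and 221, 253 and 237 CPM in cytoplasm. The mNPC libraries had 233, 185 and 180 CPM in chromatin, 113, 115 and 117 CPM in nucleoplasm and 161, 163 and 157 CPM in cytoplasm. In mESC it had 171, 261 and 234 CPM in chromatin, 47.2, 50.4 and 43.0 CPM in nucleoplasm, and 43.1, 41.7 and 40.3 CPM in cytoplasm. The mCtx libraries were above the others in each fraction, by less than for any other gene in the comparison with mNPC: 1.35 ± 0.13 in chromatin (adjusted p = 5.43e-10), 0.90 ± 0.13 in nucleoplasm (5.32e-07) and 0.56 ± 0.13 in cytoplasm (0.000307). Against mESC the rise was 1.19 ± 0.13, 2.19 ± 0.13 and 2.51 ± 0.13 in chromatin, nucleoplasm and cytoplasm.

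Mef2c (ENSMUSG00000005583, chromosome 13, 83504034 to 83667079, plus strand, 9.64% exonic) encodes a MADS-box factor also used in muscle, endothelium and microglia, and it stood at 3 separate levels in the 3 cell types. The mCtx libraries had 1086, 1230 and 1292 CPM in chromatin, 885, 960 and 874 CPM in nucleoplasm and 547, 444 and 490 CPM in cytoplasm. In mNPC it had 111, 140 and 137 CPM in chromatin, 38.9, 39.1 and 40.4 CPM in nucleoplasm, and 62.3, 75.7 and 60.5 CPM in cytoplasm. The mESC means were 0.838, 0.219 and 0.0595 CPM, from 48, 10 and 3 reads. Mef2c was higher in mCtx than in mNPC by 3.22 ± 0.26, 4.52 ± 0.28 and 2.90 ± 0.26 (largest adjusted p = 2.01e-10), and higher in mNPC than in mESC by 7.28 ± 0.36 in chromatin (1.03e-15) and 7.50 ± 0.44 in nucleoplasm. The cytoplasmic ratio to mESC in counts was 8532 (2919 to 41374) in mCtx and 1153 (394 to 5592) in mNPC, on 3 reads in 1 mESC library. In TPM Mef2c averaged 57.2, 6.57 and 0.03 in mCtx, mNPC and mESC cytoplasm, and 142, 8.75 and 0.553 in chromatin. The differences from mESC in these fractions were thus smaller in TPM than in counts. The 8 microglia markers summed to 41.5 to 51.0 CPM in mCtx cytoplasm, 23.2 to 25.2 in mNPC and 55.8 to 76.1 in mESC. Of these, Aif1, Csf1r, C1qa, C1qb and C1qc were at 0 in all mNPC cytoplasm libraries, and Cx3cr1, at 24.0 ± 0.908 CPM, made up nearly all of the mNPC sum. Cx3cr1 was also most of the sum in mESC, at 68.0 ± 11.2 CPM, and in mCtx, at 33.2 ± 2.87 CPM. Csf1r, P2ry12, C1qb and C1qc were at 0 in mESC cytoplasm. In mCtx cytoplasm the complement genes C1qa, C1qb and C1qc averaged 3.71, 3.60 and 4.76 CPM. Of the 7 endothelial and mural markers Cldn5 was at 0 in mCtx cytoplasm, while Pdgfrb, Pecam1 and Flt1 averaged 1.89, 0.867 and 0.68 CPM there, against 0.143, 0.238 and 0.137 CPM in mNPC. The part of such cells in the Mef2c levels was not tested.

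**Figure D2:**
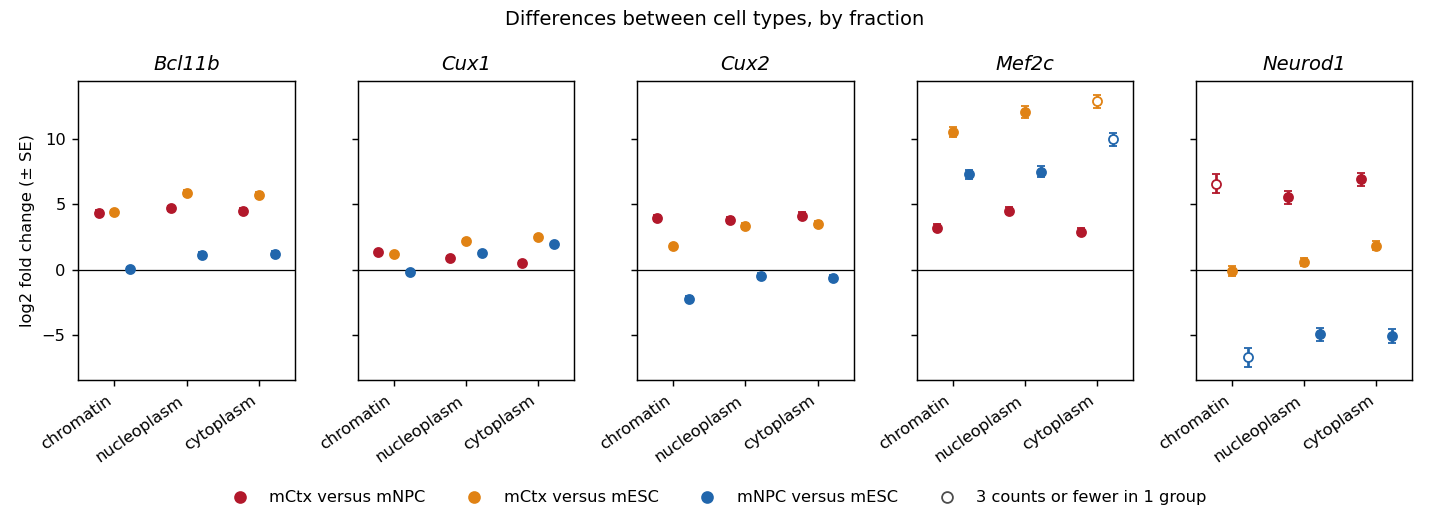
Log2 fold change ± SE by fraction for the 5 genes that passed the low-count filter also without mCtx, in mCtx against mNPC, mCtx against mESC and mNPC against mESC; open points have 3 counts or fewer in 1 group and are no bound. Each pair of comparisons shares a cell type, and Neurod1 in mCtx against mESC chromatin lies at -0.09.

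In the comparison of mCtx with mNPC, all 9 genes were higher in chromatin, where 30.2% of all tested genes were called higher and 39.2% lower. The same was found in nucleoplasm, against 36.9% of all genes higher and 34.9% lower, and in cytoplasm, against 32.6% higher and 33.4% lower. Since 4 of the 9 could not have passed the filter otherwise, the other 5 are the ones to read: all 5 were higher in each fraction, with median log2 changes of 3.99, 4.52 and 4.14, while the median of all genes was -0.18, 0.0 and 0.0. In mCtx against mESC, 8 of 9 were higher in chromatin (33.0% of all genes higher, 47.4% lower), 8 of 9 in nucleoplasm (38.8% higher, 43.4% lower) and 9 of 9 in cytoplasm (40.1% higher, 41.6% lower). The gene not called was Neurod1, which total-count scaling put at -0.88 in chromatin (adjusted p = 0.0278). Higher calls made up 43.5% of all calls in mCtx against mNPC chromatin and 41.0% in mCtx against mESC chromatin, and 27.6% and 25.3% with total-count scaling, which shifted the median of all genes by -0.6 and -0.79; the other members kept their calls and direction there. Of the 5 genes that did not need mCtx to pass, 4, 4 and 5 were higher in the 3 fractions. The 2 comparisons share the mCtx libraries, so they are not separate evidence of mCtx levels.

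Between the 2 lines the genes did not move together. In mNPC against mESC, 1 gene was higher and 2 lower in chromatin (33.8% of all genes higher, 42.7% lower), 3 higher and 1 lower in nucleoplasm (35.7% and 41.5%), and 3 higher and 2 lower in cytoplasm (36.5% and 39.4%). Neurod2, Neurod6 and Fezf2 had 0 to 3 reads in each group here, as had Tbr1 outside chromatin, so they could hardly be called. Mef2c was higher in each fraction. In counts Bcl11b was higher in mNPC by 1.15 ± 0.24 in nucleoplasm (adjusted p = 9.21e-05) and 1.21 ± 0.23 in cytoplasm (3.57e-05), and in chromatin its difference was 0.04 ± 0.19 (0.848). Its TPM averaged 0.187 ± 0.0709 in mNPC and 0.19 ± 0.0458 in mESC nucleoplasm, and 0.297 ± 0.0709 and 0.203 ± 0.12 in cytoplasm (SD), with overlapping libraries in both. Cux1 was higher in mNPC in counts by 1.29 ± 0.13 in nucleoplasm and 1.94 ± 0.13 in cytoplasm (4.61e-13), while in chromatin its difference was -0.16 ± 0.13 (0.253). Without replicate 1 of mESC chromatin, the lowest of the 3 there, the Cux1 chromatin value became -0.32 and passed (0.017). Neurod1 was lower in mNPC, at -4.92 ± 0.52 in nucleoplasm and -5.04 ± 0.54 in cytoplasm (3.97e-09), with 1 mNPC read in chromatin against 168 in mESC. Cux2 was lower in mNPC, at -2.19 ± 0.22 in chromatin (1.8e-09) and at -0.61 ± 0.25 in cytoplasm (0.0307). The cytoplasmic call of Cux2 was lost without replicate 1 of mESC (-0.47, adjusted p = 0.14) and without replicate 2 or 3 of mNPC.

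Per length, Mef2c was the most abundant of the 9 transcripts in mCtx. In mCtx cytoplasm it averaged 57.2 ± 5.04 TPM, followed by Neurod6 at 47.5 ± 2.1, Cux1 at 23.3 ± 2.05 and Neurod2 at 19.9 ± 1.64 TPM (SD, n = 3 each). Tbr1 at 7.04 ± 0.64, Bcl11b at 6.87 ± 0.362 and Cux2 at 6.44 ± 0.911 TPM had overlapping libraries, as did Cux1 and Neurod2. Fezf2 averaged 5.06 ± 0.211 TPM and Neurod1 1.70 ± 0.178 TPM, each below the gene before it without overlap. The order was different in chromatin, where Mef2c averaged 142 ± 16.5, Cux1 27.1 ± 4.34, Tbr1 23.4 ± 0.657, Cux2 20.1 ± 4.13 and Neurod6 15 ± 3.36 TPM. In mNPC cytoplasm Cux1 averaged 12.5 ± 1.47 TPM and Mef2c 6.57 ± 1.83 TPM, and the next, Cux2, 0.437 ± 0.119 TPM. In mESC cytoplasm Cux1 averaged 5.75 ± 0.514 TPM, and Cux2, Neurod1 and Bcl11b, at 0.893 ± 0.189, 0.813 ± 0.401 and 0.203 ± 0.12 TPM, came after it. By this measure Cux1 came first of the 9 in each mESC fraction and in mNPC nucleoplasm and cytoplasm, and in mNPC chromatin Mef2c came first, at 8.75 ± 1.7 TPM, before Cux1 at 6.3 ± 0.236 TPM.

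**Figure D3:**
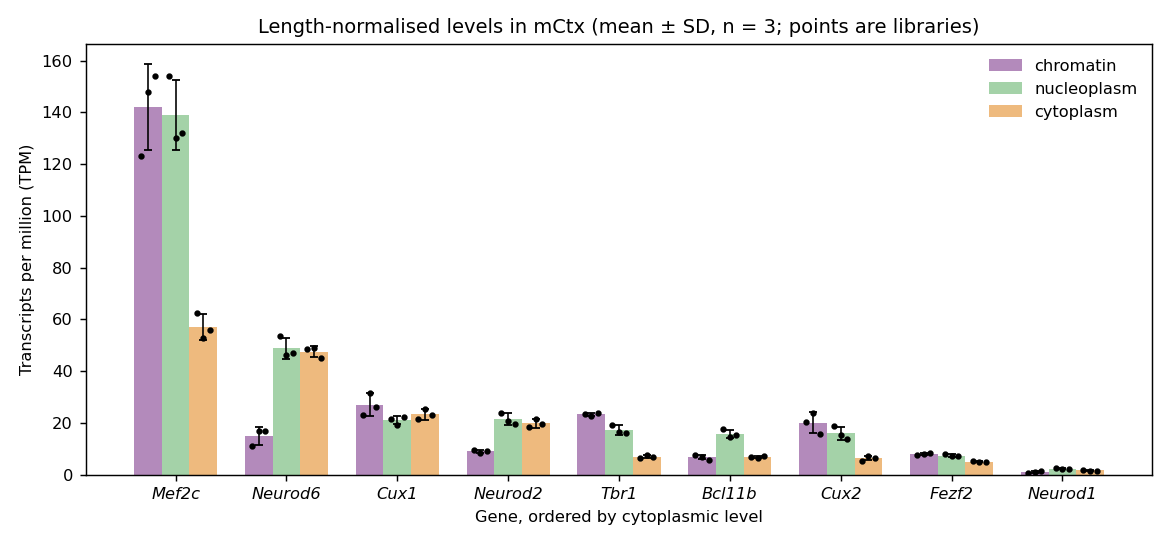
TPM of the 9 genes in mCtx chromatin, nucleoplasm and cytoplasm on a linear axis from 0, as mean ± SD of 3 libraries with a point for each. Mef2c is highest in each fraction, and Tbr1, Bcl11b and Cux2 overlap in cytoplasm.

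Within mCtx the 9 genes split between chromatin and cytoplasm. In counts scaled by effective library size, Cux1, Cux2, Bcl11b and Mef2c were higher in chromatin (4 genes, against 35.6% of all genes higher). Neurod1, Neurod2, Neurod6, Fezf2 and Tbr1 were lower there (5 genes, against 37.6% lower). The 4 genes above are the 4 longest by counted span, 93.2 to 319.36 kb, and 5.2% to 9.64% exonic, while the 5 below span 3.45 to 11.18 kb and are 49.05% to 74.21% exonic. In counts, Neurod6 was lower in chromatin, at -3.56 ± 0.14 (adjusted p = 4.25e-13), Neurod2 at -3.01 ± 0.18 (2.6e-11), Neurod1 at -2.47 ± 0.35 (4.79e-07), Fezf2 at -1.29 ± 0.20 (2.01e-05) and Tbr1 at -0.52 ± 0.17 (0.00763). Mef2c was higher by 1.28 ± 0.25 (3.85e-05), Cux1 by 1.10 ± 0.13 (1.48e-08), Cux2 by 0.95 ± 0.20 (0.000147) and Bcl11b by 0.68 ± 0.16 (0.000558).

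Measured on transcripts, the placement of several of these genes was different. On the log2(TPM + 1) scale, with limma, Neurod6, Neurod2 and Neurod1 were again lower in mCtx chromatin, at -1.62, -1.05 and -0.37 (largest adjusted p = 0.0446). Tbr1 turned to 1.6 higher (adjusted p = 2.43e-09) and Fezf2 to 0.56 higher (1.74e-08), at 23.4 TPM in chromatin against 7.04 in cytoplasm for Tbr1, and 7.95 against 5.06 for Fezf2. The median of all genes on this scale was itself 0.94 higher in mCtx chromatin, so the Fezf2 value lies below it and the Tbr1 value above. Mef2c and Cux2 remained higher, by 1.29 and 1.49, and the differences of Bcl11b and Cux1 shrank to -0.03 and 0.2. With TPM rescaled between libraries the median of all genes was 0.32. On that scale Neurod6, Neurod2, Neurod1 and Fezf2 lay lower in chromatin, at -3.03, -2.4, -1.13 and -0.71, Tbr1 lay at 0.21, Mef2c and Cux2 at -0.19 and 0.12, and Bcl11b and Cux1 lay lower, at -1.3 and -1.24. Scaling of the counts mattered for 3 genes: Bcl11b (0.12, adjusted p = 0.572) and Cux2 (0.38, 0.0978) were not called with total-count scaling, and Tbr1 was not with median-ratio scaling (-0.24, 0.202). Total-count scaling shifted the median of all genes by -0.56 in this comparison, and higher calls then made up 35.9% of all calls in place of 48.6%. The 3 NeuroD genes were thus called lower in mCtx chromatin in counts, TPM and rescaled TPM, at sizes that differed between these measures, and each of the other 6 lost its call or changed sign in at least 1 of them. Over the 9 genes, TPM gave 4 higher and 3 lower, rescaled TPM 6 lower, and total-count scaling 2 higher and 5 lower.

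**Figure D4:**
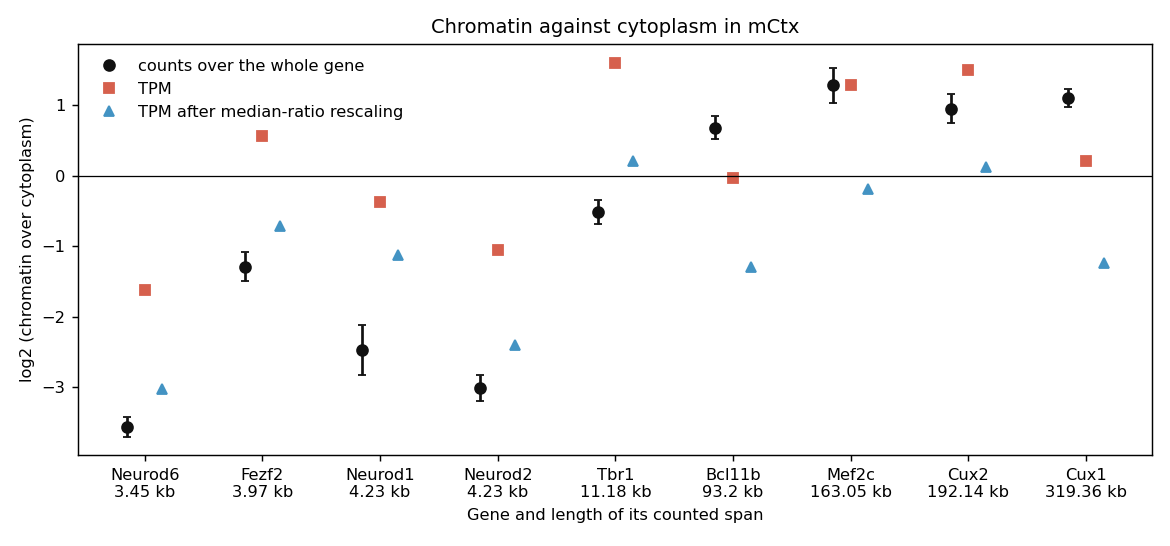
Log2 difference of chromatin over cytoplasm in mCtx for the 9 genes, ordered by the length of their counted span in kb, in counts (± SE), TPM and TPM after median-ratio rescaling; 0 means the same relative level in both fractions. Neurod6 lies at -3.56, -1.62 and -3.03, and Tbr1 at -0.52, 1.6 and 0.21.

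In counts, nucleoplasm of mCtx lay between the other fractions for the NeuroD genes. Mean TPM of Neurod1, Neurod2 and Neurod6 was highest in nucleoplasm, at 2.35, 21.5 and 48.9, against 1.7, 19.9 and 47.5 in cytoplasm. For Neurod2 and Neurod6 the TPM of these libraries overlapped. In nucleoplasm against cytoplasm, 1 gene was higher (29.6% of all genes) and 4 were lower (28.6%) in counts. That split depended on the measure: TPM called 5 higher, and rescaled TPM and total-count scaling each called 5 lower. Neurod2 and Neurod6 were both lower, at -1.13, with SEs of 0.17 and 0.13 and adjusted p of 1.32e-05 and 8.72e-07, and Mef2c was higher by 0.88 ± 0.24 (0.00303). Fezf2, at -0.60 ± 0.19 (0.0141), lost its call without replicate 1 of mCtx cytoplasm or of mCtx nucleoplasm, and Neurod1, at -0.73 ± 0.31 (0.0479), lost it without each of the 6 libraries in turn. In TPM without rescaling, Neurod2 and Neurod6 lay at 0.1 and 0.04, while the median of all genes lay at 0.41, so they were lower than that median in TPM too but not lower in absolute TPM. With total-count scaling, higher calls made up 36.9% of all calls in this comparison in place of 50.9%, and 33.7% in place of 45.1% in the same comparison of mNPC.

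In each line, 5 genes held a larger share in chromatin by counts, with a long span for 4 of them. In mNPC chromatin against cytoplasm, 5 genes were higher (37.0% of all genes higher, 32.5% lower): Cux2 by 1.10 ± 0.25, Mef2c by 0.96 ± 0.25 (adjusted p = 0.00111), Bcl11b by 0.83 ± 0.20 (0.000576) and Cux1 by 0.31 ± 0.13 (0.0297), and Tbr1 with a ratio of 7.95 (2.4 to 41.4) from 23 reads against 3. The Cux1 call was lost without replicate 1 of mNPC chromatin (0.18) or without any 1 of the mNPC cytoplasm libraries. In mESC, 5 genes were higher in chromatin (44.6% higher, 32.9% lower): Cux2 by 2.68 ± 0.23, Cux1 by 2.41 ± 0.13 and Bcl11b by 2.00 ± 0.22 (5.82e-09), with Mef2c at a ratio of 14.2 (4.56 to 71.0) on 48 reads against 3 and overlapping libraries, and Tbr1 at least 2.98-fold higher on 30 reads against 0. With total-count scaling 67.9% of all calls in mESC were higher in chromatin, in place of 57.5%. Neurod1 was at -0.52 ± 0.34 in mESC chromatin against cytoplasm (0.163), and at -0.47 (0.0409) with the replicate number as a block, which pairs the mESC fractions. In TPM the Bcl11b differences shrank to -0.09 in mNPC and 0.06 in mESC, Cux1 turned to -0.88 in mNPC (adjusted p = 0.000103) and lay at 0.92 in mESC, and Cux2 remained higher in chromatin, at 1.12 and 2.18.

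In mNPC nucleoplasm against cytoplasm, 2 genes were lower (27.5% of all genes, with 22.6% higher): Cux1 at -0.48 ± 0.13 (adjusted p = 0.00212) and Mef2c at -0.75 ± 0.25 (0.0145, and 0.0682 without replicate 2 of mNPC cytoplasm). In mESC nucleoplasm against cytoplasm, 0 of 9 genes were called by edgeR (29.9% of all genes higher, 33.2% lower), 0 had an unadjusted p under 0.05, and DESeq2 called 0. In both comparisons Neurod2, Neurod6, Fezf2 and Tbr1 had 0 to 3 reads in each group, so they could hardly be called. Mef2c had 10 reads against 3 in mESC. With the replicate block Neurod1 was called in mESC nucleoplasm against cytoplasm, at 0.52 (0.0202), against 0.50 ± 0.33 (0.19) without it.

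The chromatin-to-cytoplasm ratio itself was compared between cell types with an interaction term. For mCtx against mNPC, 1 gene had a higher ratio (12.2% of all genes) and 1 a lower one (21.8%): Cux1 at 0.78 ± 0.18 (adjusted p = 0.00112) and Tbr1 at -3.35 ± 0.69 (0.000475). For mCtx against mESC, 7 genes had a lower ratio in counts (32.5% of all genes lower, 17.7% higher), while TPM called 3 higher and 4 lower. Among the 7 were Tbr1 at -6.55 ± 0.98, Cux2 at -1.73 ± 0.30, Bcl11b at -1.32 ± 0.27 and Cux1 at -1.32 ± 0.18. The rest were Neurod1, Mef2c, with 3 reads in mESC cytoplasm, and Neurod2, with 3 reads in mESC chromatin. Tbr1 and Neurod2 had passed the low-count filter only through mCtx. For mNPC against mESC, 4 were lower (23.5% lower, 16.7% higher): Mef2c at -2.69 ± 0.95, Cux1 at -2.10 ± 0.18, Cux2 at -1.58 ± 0.33 and Bcl11b at -1.17 ± 0.30. The Mef2c value rests on 3 reads in mESC cytoplasm. Its call was lost without replicate 3 of mESC chromatin (-1.77, adjusted p = 0.145) or replicate 1 or 3 of mESC cytoplasm. Bcl11b, Cux1 and Cux2 thus had the highest chromatin-to-cytoplasm ratio of counts in mESC, and in TPM the Bcl11b difference of mCtx from mESC shrank to -0.09 (adjusted p = 0.582). The Tbr1 values rest on 3 or fewer reads in the cytoplasm of the lines, and in TPM they turned to 0.55 against mNPC and 0.71 against mESC, where the median of all genes was 0.73 and 0.5. Scaling moved these splits as well: higher calls made up 35.9% (mCtx against mNPC), 35.2% (mCtx against mESC) and 41.5% (mNPC against mESC) of all calls, 5.52%, 6.23% and 25.5% with total-count scaling, and 53.5%, 47.3% and 44.3% with median-ratio scaling.

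**Figure D5:**
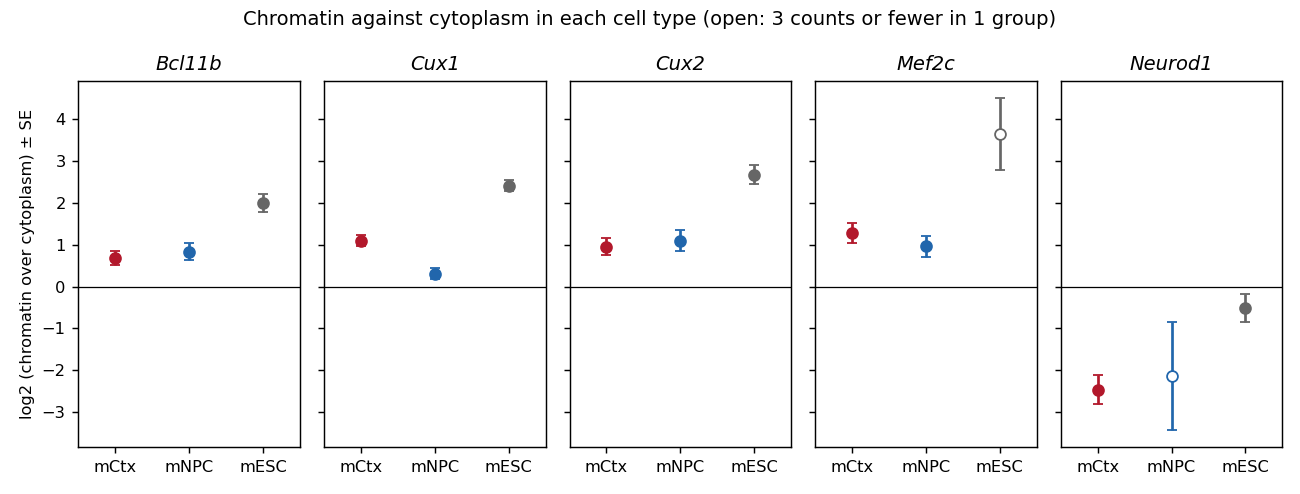
Log2 difference ± SE of chromatin over cytoplasm in counts for Bcl11b, Cux1, Cux2, Mef2c and Neurod1 in mCtx, mNPC and mESC; open points have 3 counts or fewer in 1 fraction. Cux1, Cux2 and Bcl11b lie at 1.10, 0.95 and 0.68 in mCtx, against 2.41, 2.68 and 2.00 in mESC.

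By Pearson correlation of log2(CPM + 1) over the 27 libraries, Neurod2 and Neurod6 were most like each other (r = 0.999), and both were close to Bhlhe22 (0.998 and 0.999), another helix-loop-helix gene of cortical neurons. Fezf2 was nearest to Stum and Actl6b (0.998 each), Actl6b being a neuronal chromatin-remodelling subunit. Tbr1 was nearest to Gpr26 and Sla (0.996 each), Bcl11b to Dok5 (0.99) and Camk4 (0.989), and Mef2c to Smarca2 (0.994) and Snph (0.993). Cux2 was nearest to Adarb1 (0.985), an RNA-editing enzyme, Cux1 to Eri3 (0.973), and Neurod1 to Kcnh3 (0.964). The member most like Neurod1 was Neurod6, at 0.705. These libraries share cell type and fraction, so the values mainly restate that grouping and carry no p.

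Of 12 other factors of deep-layer neurons, 6 were higher and 4 lower in mCtx than in mNPC chromatin, 12 higher in nucleoplasm, and 8 higher and 2 lower in cytoplasm, with median log2 changes of 0.97, 2.54 and 1.06. Ldb2, a LIM-domain cofactor, averaged 155 ± 5.2 CPM in mCtx cytoplasm, against 7.96 ± 1.2 CPM in mNPC, a rise of 4.29 ± 0.26. Sox5, which times the succession of deep-layer neuron subtypes, averaged 146 ± 9.89 against 69.3 ± 5.94 CPM, a rise of 1.07 ± 0.30 (adjusted p = 0.00244). Nfia, a nuclear factor also used in gliogenesis, and the corepressor Tle4 were lower in mCtx cytoplasm, at 80.1 ± 4.72 against 160 ± 23.9 CPM and 76.5 ± 6.18 against 157 ± 24.4 CPM in mNPC, and higher in mCtx nucleoplasm, by 1.35 and 0.72. Nfib averaged 421 ± 7.61 CPM in mCtx cytoplasm and 264 ± 68 CPM in mNPC (0.68 ± 0.40, adjusted p = 0.141).

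Of 11 other factors of upper-layer neurons, 7 were higher and 2 lower in mCtx than in mNPC chromatin, 9 higher and 1 lower in nucleoplasm, and 9 higher in cytoplasm. The shares of all genes were 30.2%, 36.9% and 32.6% higher in these fractions, and 39.2%, 34.9% and 33.4% lower. Satb1, a chromatin organiser, averaged 83.2 ± 7.64 CPM in mCtx cytoplasm, against 46.2 ± 2.65 CPM in mNPC, a rise of 0.85 ± 0.13. Rorb averaged 84.2 ± 13.4 CPM in mCtx and 106 ± 14.8 CPM in mNPC cytoplasm (-0.33, adjusted p = 0.103), and Pou3f3, a POU factor of progenitors and upper-layer neurons, 117 ± 5.36 and 104 ± 13.7 CPM (0.16, 0.32). In chromatin and nucleoplasm Pou3f3 was lower in mCtx, at -1.16 and -0.80.

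Of 15 factors of dorsal and intermediate progenitors, 13 were tested, and 5 were higher in mCtx than in mNPC cytoplasm and 7 lower (32.6% and 33.4% of all genes). Hes5, a Notch target, averaged 21.7 ± 2.18 CPM in mCtx cytoplasm, against 542 ± 62.1 CPM in mNPC, and Sox2 52.9 ± 3.37 against 467 ± 16.7 CPM. Emx1, which marks the dorsal telencephalon, averaged 40.6 ± 1.66 CPM in mCtx cytoplasm and was at 0 in all 9 mNPC libraries, so it was at least 228-fold higher. Eomes, of intermediate progenitors, averaged 6.98 ± 1.01 CPM, against 0.077 ± 0.026 CPM in mNPC, Insm1 43.0 ± 3.43 against 6.14 ± 0.693 CPM, and Gli3 20.5 ± 1.01 against 11.8 ± 2.22 CPM. Of 12 further members of the same gene families, 9 were tested, and 7 were higher and 1 lower in each fraction. Of all genes, 30.2%, 36.9% and 32.6% were higher in chromatin, nucleoplasm and cytoplasm, and 39.2%, 34.9% and 33.4% lower. Satb1, Bcl11a, Bhlhe22 and Eomes are among the genes that stand in 2 of these lists. Bcl11a averaged 75.3 ± 3.55 CPM in mCtx cytoplasm, against 1.89 ± 0.501 CPM in mNPC, and Mef2a 86.9 ± 7.28 against 50.6 ± 2.93 CPM. The gene that was lower was Mef2b, at 0.835 ± 0.249 against 2.35 ± 0.453 CPM.

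In mCtx against mNPC cytoplasm, neuronal marker sums were higher, as were endothelial and fibroblast sums, while radial glia, oligodendrocyte and astrocyte sums were lower. All 6 excitatory markers were higher in mCtx than in mNPC cytoplasm, among them the glutamate transporter Slc17a7, at 48.4 ± 6.5 against 0.183 ± 0.123 CPM. All 10 interneuron markers were also higher, summing to 213 to 230 CPM in mCtx cytoplasm, against 2.68 to 3.18 in mNPC and 7.02 to 11.1 in mESC. Sst averaged 102 ± 6.6 CPM in mCtx, and Sst and Slc32a1 were at 0 in mNPC cytoplasm. In this comparison 32.6% of all genes were higher. For the genes of these lists and of those above, passing the low-count filter without mCtx was not checked. Genes at or near 0 outside mCtx may therefore have had to be called higher. Radial glia markers summed to 937 to 1109 CPM in mCtx, against 5667 to 6426 in mNPC and 126 to 144 in mESC cytoplasm, oligodendrocyte lineage markers to 130 to 162, against 1723 to 1780 and 6.24 to 11, and astrocyte markers to 134 to 152, against 953 to 1132 and 118 to 156. Endothelial and mural markers summed to 6.19 to 7.11 CPM in mCtx, against 0.971 to 1.15 in mNPC and 40.2 to 58.5 in mESC, and fibroblast markers to 4.12 to 5.13, against 0.072 to 0.158 and 0.476 to 0.646. Interneurons are known to express Bcl11b and Mef2c, and their part in the mCtx levels of these genes was not tested.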

How the data were processed

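RNA of 3 fractions of 3 mouse cell types was sequenced in 27 libraries, 3 per group, as stranded 100-base paired reads. Per the submitters' processing notes, STAR, featureCounts, kallisto and mm10 were used. The authors deposited whole-number counts per gene span, 11249862 to 19871198 per library; the chromatin columns were entered under the unit 'expected counts' for a format check, although the deposited values are whole. The authors also deposited TPM for 53379 genes. Strand, overlap and multimapping settings are not given in the sources used here.

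Names came from GENCODE (35449 of 37332 count genes matched). edgeR 4.0.16 was run with TMM, filterByExpr (18249 genes) and 9 group coefficients on all libraries, leaving 18 residual degrees of freedom; SE is |log2 fold| divided by the root of F. P-values were adjusted by Benjamini-Hochberg over all genes tested. The alternatives were limma 3.58.1 on log2(TPM + 1) over 31006 genes, TPM rescaled between libraries, a pseudocount of 0.1, DESeq2 1.42.0, other scalings and filters, the compared groups alone, each library left out, a replicate block, and, chosen after seeing the data, Neurod1 and Cerkl counts added and the mESC libraries numbered 1 left out. Any reads counted for both Neurod1 and Cerkl would be doubled in their added counts. Fits were tested on simulated data. R was 4.3.3 and Python 3.11.15.

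A gene at 0 in a group got a floor of 3 counts per library, and 1 to 3 reads an exact 95% interval; both cover counting error only. The genes, the lists and the tests were chosen with earlier results of these data known. Besides all 9 genes, the text names per list the 4 with the highest mean CPM and those called against the list's majority in mCtx against mNPC cytoplasm, and the genes most alike by correlation. Some genes that this rule names are not reported here. Some marker genes named at 0 and list members that gave direction counts were named after their values were seen. Promoters came from RefSeq (GRCm38.p6).

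Libraries were centred on their group, and those sharing a number were correlated across genes. These correlations were 0.28 to 0.66 between mESC fractions, so the numbers were taken to pair these. In all other pairs of groups they were -0.12 to 0.19, highest between mNPC chromatin and cytoplasm. Such low values cannot show whether those samples were paired.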

Additional observations from a re-analysis of the deposited data

Results flagged for a closer look

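These genes are listed because their chromatin-to-cytoplasm ratio differed between cell types by the interaction term (edgeR, adjusted over all genes). For mCtx against mNPC the ratio of Tbr1 differed by -3.35 ± 0.69 (adjusted p = 0.000475), with 3 reads in mNPC cytoplasm, and that of Cux1 by 0.78 ± 0.18 (0.00112), which total-count scaling reduced to 0.04. For mCtx against mESC the ratio of Tbr1 differed by -6.55 ± 0.98 (4.75e-06), Cux2 by -1.73 ± 0.30 (2.76e-05), Bcl11b by -1.32 ± 0.27 (0.000245), Cux1 by -1.32 ± 0.18 (8.6e-07) and Neurod1 by -1.95 ± 0.49 (0.00147). Mef2c differed by -2.37 ± 0.96 (0.0423), on 3 reads in mESC cytoplasm, and was not called without any 1 of 7 of the 12 libraries. Neurod2 differed by -5.90 ± 1.73 (0.00826), on 3 reads in 1 mESC chromatin library, and was not called without that library. For mNPC against mESC the ratio of Cux1 differed by -2.10 ± 0.18 (1.28e-09), Cux2 by -1.58 ± 0.33 (0.000409), Bcl11b by -1.17 ± 0.30 (0.00244) and Mef2c by -2.69 ± 0.95 (0.0249). This Mef2c value also rests on 3 reads in mESC cytoplasm. It was not called without replicate 3 of mESC chromatin, or without replicate 1 or 3 of mESC cytoplasm. The causes were not tested.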

How the results depend on the processing

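Of the values of the 9 genes under alternatives, 2608 kept direction and side of the threshold, 82 lost a call, 78 gained one and 58 turned sign. Every mCtx call against mNPC held under TPM, rescaled TPM, total-count and median-ratio scaling. The sign changes were nearly all between fractions, and TPM gave most of them; the cause was not tested. For chromatin against cytoplasm in mCtx, Tbr1 turned to 1.6 in TPM (1.72 with a pseudocount of 0.1, 0.21 rescaled), Fezf2 to 0.56 (0.64 with that pseudocount) and Bcl11b to -0.03 (-1.3 rescaled), and with rescaled TPM Cux1 turned to -1.24 and Mef2c to -0.19. In mNPC, Bcl11b turned to -0.09 (-0.3 with the pseudocount of 0.1, -0.25 rescaled), Cux1 to -0.88 (-0.97 and -1.43), Mef2c to -0.12 rescaled and Neurod6 to 0.4 with that pseudocount. In mESC, Bcl11b turned to -0.06 rescaled, and Neurod1 to 0.84 when Cerkl counts were added. For nucleoplasm against cytoplasm in mCtx, TPM gave Tbr1 1.19 (1.29 with the pseudocount of 0.1), Fezf2 0.48 (0.55), Neurod1 0.31 (0.45), Neurod2 0.1 (0.11) and Neurod6 0.04 (0.04), and in mESC rescaled TPM gave Cux1 -0.52. For the chromatin-to-cytoplasm ratio TPM gave Fezf2 0.53 in mCtx against mESC and 0.53 against mNPC, Tbr1 0.71 and 0.55, and Mef2c 0.7 against mESC. In mNPC against mESC, TPM gave Bcl11b -0.01 in nucleoplasm (-0.04 with the pseudocount of 0.1) and Tbr1 0.47 in chromatin (0.84, and 0.89 rescaled). The endothelial marker Pecam1 turned to -0.01 in mCtx against mNPC cytoplasm with rescaled TPM.

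The number of the 9 genes called moved past 1.5 times as follows. For chromatin against cytoplasm it was 3 in mESC when the compared groups were fitted alone and 3 in mNPC in TPM, against 5 each. For the ratio in mCtx against mNPC it was 6 in TPM, 7 in rescaled TPM and 4 with total-count scaling, against 2, and in mNPC against mESC 2 in TPM or rescaled TPM, against 4. In mNPC against mESC it was 5 in TPM (7 with the pseudocount of 0.1) against 3 in chromatin, and 3 in TPM against 5 in cytoplasm. For nucleoplasm against cytoplasm in mESC it was 1 with Cerkl counts added, with rescaled TPM, with the compared groups alone and with the replicate block, against 0. Leaving out each library in turn gave 3 to 4 for nucleoplasm against cytoplasm in mCtx, 0 to 2 in mESC and 1 to 2 in mNPC.

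With the replicate block, outside the paired mESC fractions, Bcl11b was called in mCtx nucleoplasm against cytoplasm, at 0.26 (adjusted p = 0.0327). Neurod1 was called in mCtx against mESC nucleoplasm, at 0.68 (0.0344). Whether the replicate numbers pair those samples is not known. Within the mESC fractions the block changed no call of the 9 genes beyond the Neurod1 values given above in the results. Depth limits the genes with 0 to 3 reads in a group to bounds or wide intervals.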
